A study of Mus musculus with 4 samples.

Results

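A set of 10 genes of peptide signalling were followed in the mouse cerebellum: the TRH genes Trh, Trhr, Trhr2 and Trhde, the galanin genes Gal, Galr1, Galr2 and Galr3, and the peptidase genes Mme and Ece2. They were chosen by their measured difference between knockout and control, because Trhr and Mme were lower and Galr1 was higher in the knockout, so their values are given as a description with no test. All non-control probes whose RefSeq accession maps to a member were taken, which gave 13 of the 56605 probes on the array for all 10 genes. RNA was taken at postnatal day 28 from 2 control and 2 knockout (KO) samples. Controls were Derlin-2 flox/flox; for the KO, Derl2 flox/flox animals had been bred to a line with Cre recombinase under the nestin promoter, and the background of both groups was C57BL/6. The nestin promoter is active in neural precursors, so cells of other origin in the tissue may keep the gene, and no control with Cre alone was analysed here. The deleted gene, Derl2, codes for Derlin-2, which helps to clear misfolded proteins from the endoplasmic reticulum.

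TRH (thyrotropin-releasing hormone) is a short peptide cut from a larger precursor; it is best known for driving thyrotropin release from the pituitary, and it also acts as a transmitter in the brain and has been studied in cerebellar ataxia. Its receptors Trhr and Trhr2 couple mainly to Gq and phospholipase C, and Trhde is the cell-surface enzyme that inactivates TRH outside the cell. Galanin is a neuropeptide whose receptors Galr1 and Galr3 couple to inhibitory G proteins, while Galr2 also signals through Gq. Mme (neprilysin) is a membrane zinc peptidase that cleaves enkephalins, substance P and other small peptides at the cell surface, and Ece2 is a related zinc peptidase that converts endothelin precursors at acid pH.

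Signals are given on 2 scales. The processed signal is the scanner's brightness of a spot after background subtraction, with the extraction software's own error; each member probe has 1 spot on an array. The log2 signal is log2 of the processed signal minus the array's 75th percentile of it, so 0 marks that percentile. A spot is well above background when the software's flag says so. Probes entered the fit where the flag was set on both control or both KO arrays, which kept 8 of the 13 member probes, from 7 genes, and 37516 probes in all. Trh, Trhr2 and Galr2 had no probe that was kept. The arrays shared 1 slide, with the controls and the knockouts at neighbouring positions of their own, so slide position and group cannot be told apart. The labels do not say whether each sample was a single mouse's cerebellum. An SD measures the spread between these samples. The SE of a difference comes from the fit, which moderates each probe's variance with those of all probes. The ± beside a processed signal is the extraction error of 1 spot.

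Derl2, the targeted gene, was lower on both KO arrays: its brighter probe had a log2 signal of 2.13 and 2.20 in control and 0.81 and 0.70 in KO. Between 66.4% and 69.4% of spots were well above background on an array, and 0 spots were saturated. All 9 Purkinje cell and all 8 granule cell markers were well above background on all 4 arrays. Choroid plexus markers stood apart: their summed linear signal, as a multiple of the array's 75th percentile, was 149 on control replicate 2 against 7.72 on control replicate 1 and 8.15 and 8.13 on the KO arrays. Of the 16 marker lists, the summed level was lower in KO with no overlap in 9 and overlapped in 7. A sum takes the brightest probe of every gene on a list, whether or not that probe was kept for the fit. Of all single genes, 45.9% did not overlap and 63.9% were lower, and nothing is read from these counts. Small differences depend on the scaling. After scaling to spike-in probes, the median log2 difference of the Purkinje cell markers turned from -0.05 to 0.04. That of the granule cell markers turned from -0.03 to 0.05. For the cerebellar nuclei the summed level was 52.7 and 40.5 in control and 37.6 and 34.2 in KO. For mural cells of blood vessels it was 23.2 and 23.7 against 18.8 and 21.6. The hypothalamus and pituitary list had sums of 1.61 and 1.08 in control and 0.882 and 0.975 in KO. Avp, Gh and Prl were well above background on no array. Of the 8 genes on this list, 4 had a kept probe, and 1 of these did not overlap between groups. The sums of this list thus rest partly on probes left out of the fit, and a sum over kept probes alone was not taken.

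**Figure D1:**
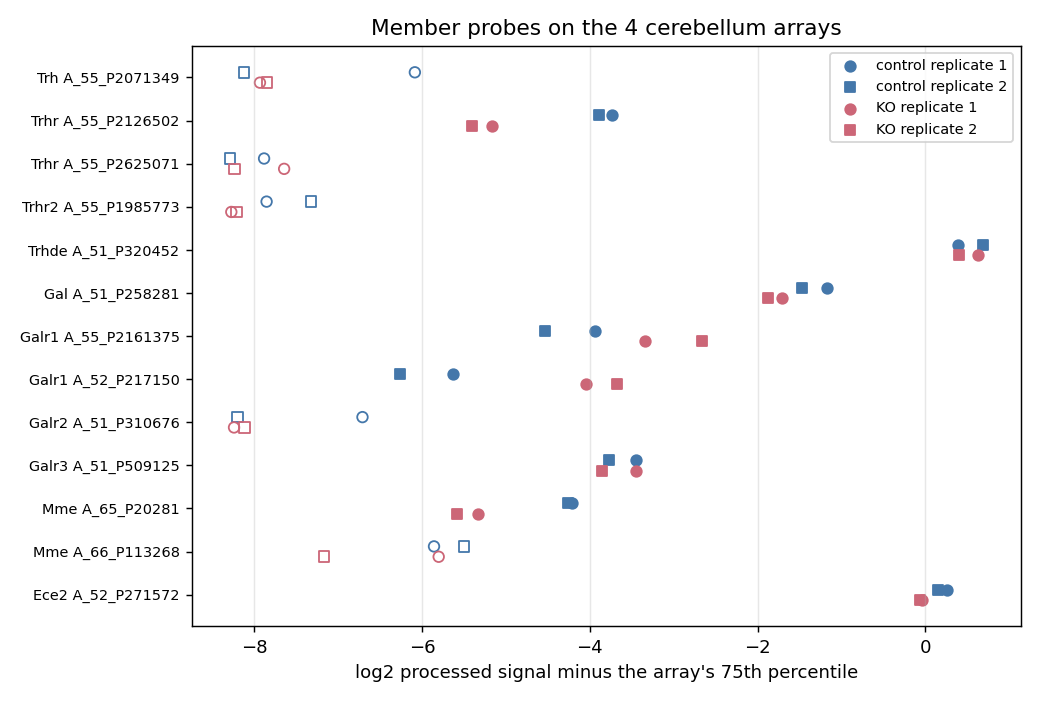
Log2 signal above or below the 75th percentile of its array (x axis) for each of the 13 member probes (y axis) on the 4 arrays; circles are replicate 1 and squares replicate 2, blue is control and red KO, and open symbols mark the 5 probes left out of the fit. The KO points of Trhr A_55_P2126502 and Mme A_65_P20281 lie to the left of both control points, those of both Galr1 probes to the right.

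Promoter sequence was looked up for the members, to show what stands around their start sites. RefSeq windows of GRCm38.p6, 250 bases before to 50 after a start, were used for 6 of the members, as 8 windows. Mme had 3, and they differ in base composition. The first, at chr3:63294961-63295260 on the plus strand, has a GC content of 46% with 4 CpG dinucleotides. The second, at chr3:63295622-63295921, has 73% with 32, and the third overlaps it. The median window of 32851 has a GC content of 52.7% and 7 CpG. Both are shown 5′ to 3′ with CpG in capitals, and the Gal window, at chr19:3414495-3414794 on the minus strand, is shown with its match to TGACG in capitals.
Mme first start: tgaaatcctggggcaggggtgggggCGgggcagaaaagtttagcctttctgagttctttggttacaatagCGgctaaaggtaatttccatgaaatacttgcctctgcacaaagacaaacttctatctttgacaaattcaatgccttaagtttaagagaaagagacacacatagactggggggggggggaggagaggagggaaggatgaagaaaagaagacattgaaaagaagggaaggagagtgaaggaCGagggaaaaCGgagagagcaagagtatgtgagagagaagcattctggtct
Mme second start: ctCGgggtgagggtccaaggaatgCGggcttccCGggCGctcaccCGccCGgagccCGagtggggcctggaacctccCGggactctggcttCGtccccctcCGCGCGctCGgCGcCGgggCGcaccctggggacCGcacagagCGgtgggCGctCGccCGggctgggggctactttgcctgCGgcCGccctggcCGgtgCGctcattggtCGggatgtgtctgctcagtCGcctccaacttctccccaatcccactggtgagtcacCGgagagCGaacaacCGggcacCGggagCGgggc
Gal: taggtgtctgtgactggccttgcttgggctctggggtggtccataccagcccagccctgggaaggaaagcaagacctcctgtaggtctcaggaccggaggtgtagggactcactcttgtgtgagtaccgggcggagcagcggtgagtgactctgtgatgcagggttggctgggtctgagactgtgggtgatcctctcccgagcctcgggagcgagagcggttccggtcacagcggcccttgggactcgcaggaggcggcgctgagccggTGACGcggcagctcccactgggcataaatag

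These windows were searched on both strands for the cyclic AMP response element TGACGTCA and its core TGACG, which it contains, for TGACGTGG and the ER stress response element (CCAAT, 9 bases of any kind, CCACG) of the unfolded protein response, and for the amino acid response element TGATGCAAT. The windows searched were those of Mme, Trh, Trhde, Galr2, Ece2 and Gal, and no full element was found in them. For Trhr, Trhr2, Galr1 and Galr3 no window was used here, so their promoters were not searched. The core TGACG was found once in the window of Gal, at position 20 after the start, and once in that of Trh, at -96. It occurs in 20.8% of all windows. The full elements occur in 1.79%, 0.676%, 0.119% and 0.192%. The letters are a description of these windows and locate no bound factor.

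Trhr was lower in the knockout on the probe that measured it. The processed signal of probe A_55_P2126502 was 60.0 ± 7.22 and 53.2 ± 6.08 (extraction error) in control and 21.0 ± 3.53 and 17.1 ± 3.05 in KO. The log2 signal was -3.73 and -3.89 in control and -5.17 and -5.40 in KO. Both KO arrays lay below both controls, and the 4 pairwise differences ran from -1.67 to -1.28. Group means were -3.81 ± 0.11 (SD, n = 2) and -5.29 ± 0.16 (SD, n = 2), a difference of -1.47 (SE 0.14), so that KO had 36.0% of the control signal. The probe was well above background on all 4 arrays but dim: the median spot intensity was 80 and 77.5 in control and 44.5 and 41 in KO, over a local background between 24 and 27. With normexp, a background correction that adds an offset of 50 to each spot, the difference was -0.57. In whole tissue, fewer cells that make a transcript and less of it per cell cannot be told apart.

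The other Trhr probe, A_55_P2625071, gave no reading. Its processed signal lay between 2.39 and 3.79 on the 4 arrays, with an extraction error of at least 63.1% of the signal, and it was well above background on 0 of 4. The difference at the first probe therefore has no second reading to set beside it. The ligand and the second receptor were also near background: Trh was read at 2.83 to 3.13 on 3 arrays and at 11.7 ± 3.96 on control replicate 1. That spot of Trh lay on a patch of raised local background, at 42 against 24 to 25 on the other arrays, and was the only 1 of the 52 member spots to do so. Trhr2 had log2 signals of -7.85 and -7.32 in control and -8.27 and -8.21 in KO, where no spot was well above background, so no fold is given.

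Trhde, which breaks down TRH, was bright and did not separate the groups. Its processed signal was 1045 and 1271 in control and 1170 and 956 in KO. The log2 difference was -0.02 (SE 0.16), with pairwise differences from -0.28 to 0.23. It changed sign with scaling to spike-in probes, to 0.06, and when control replicate 2 or KO replicate 2 was left out.

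Galr1 was higher in the knockout on both of its probes. Probe A_52_P217150 had a processed signal of 16.1 ± 3.83 and 10.3 ± 2.74 in control and 45.8 ± 5.14 and 56.7 ± 6.15 in KO. It was well above background on both KO arrays and on neither control array, so its fold was not measured. Against a floor for the controls, KO was 4.01-fold higher. The floor is, per control array, the higher of the probe's own log2 signal and the lowest signal of any probe well above background. It is no detection limit: on control replicate 1 the probe's own -5.63 lay above that lowest signal, -5.69. The fold of 4.01 is therefore no strict lower limit. With 1 array left out it ran from 3.40-fold, without control replicate 2, to 4.73-fold. The measured means were -5.95 ± 0.45 (SD, n = 2) and -3.86 ± 0.27 (SD, n = 2). Probe A_55_P2161375 was well above background on all 4 arrays, with a processed signal of 52.1 ± 6.42 and 34.1 ± 4.41 in control and 74.8 ± 7.92 and 114 ± 11.7 in KO.

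On that second Galr1 probe the log2 signal was -3.93 and -4.53 in control and -3.34 and -2.67 in KO. The groups did not overlap, but the closest pair, control replicate 1 and KO replicate 1, differed by 0.59 and the farthest by 1.87. The difference of means was 1.23 (SE 0.32), or 2.35-fold, against an SD of 0.42 in control and 0.48 in KO. Without control replicate 1 it was 1.53, and without KO replicate 2 it was 0.89. Under normexp the difference was smaller, at 0.59.

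**Figure D2:**
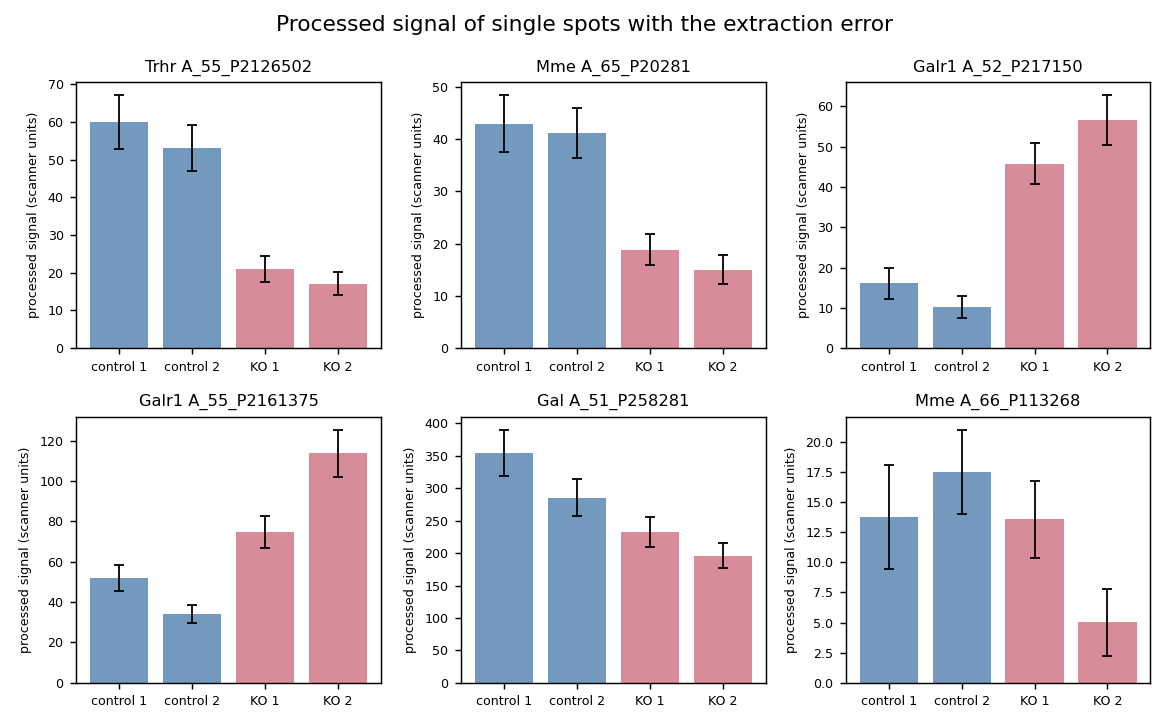
Processed signal in scanner units (y axis, from 0) of single spots on each of the 4 arrays (x axis; blue control, red KO) for 6 probes of Trhr, Mme, Galr1 and Gal; error bars are the extraction software's error of the spot. The Trhr A_55_P2126502 bars stand at 60.0 and 53.2 in control and at 21.0 and 17.1 in KO. On Mme A_66_P113268 the error bar of KO replicate 1 overlaps those of both controls, and that of KO replicate 2 lies below them.

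Gal, the galanin precursor, was lower by less. The processed signal was 355 ± 35.6 and 286 ± 28.7 in control and 232 ± 23.4 and 196 ± 19.8 in KO. Both KO arrays were below both controls, with pairwise log2 differences from -0.71 to -0.24 and a difference of means of -0.48 (SE 0.15). The KO signal was 71.9% of control. This probe is brighter than those of Trhr, Mme and Galr1, and under normexp its difference was -0.40.

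The other galanin receptors showed no such separation. Galr3 had log2 signals of -3.45 and -3.77 in control and -3.45 and -3.86 in KO, a difference of -0.05 (SE 0.20) whose groups overlapped and whose sign turned under 4 of 12 alternatives, among them normexp and spike-in scaling. Galr2 was well above background on no array; it was read at 7.60 ± 3.73 on control replicate 1 and at 2.50 to 2.68 on the other 3.

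Mme was lower in the knockout on 1 of its 2 probes. Probe A_65_P20281 had a processed signal of 43.0 ± 5.47 and 41.2 ± 4.80 in control and 18.8 ± 2.96 and 15.02 ± 2.75 in KO, and was well above background on all 4 arrays. Its log2 signal was -4.21 and -4.26 in control and -5.33 and -5.59 in KO. The controls differed by less than the knockouts did, and the groups did not overlap. The difference of means was -1.22 (SE 0.13), with pairwise differences from -1.38 to -1.07, so that KO had 42.8% of the control signal. Under normexp it was -0.39. Control replicate 2 was the array with high choroid plexus markers; without it the difference of Mme was -1.25 and that of Trhr was -1.56.

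Probe A_66_P113268 of Mme was well above background only on control replicate 2 and did not enter the fit. Its processed signal was 13.7 ± 4.32 and 17.5 ± 3.51 in control and 13.6 ± 3.19 and 5.02 ± 2.76 in KO. The 3 spots not well above background are too dim for a firm comparison to set beside the first probe. KO replicate 1 read close to control replicate 1, and KO replicate 2 read below both controls.

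Ece2 was bright and slightly lower. Its processed signal was 956 ± 95.6 and 879 ± 88.0 in control and 740 ± 74.0 and 692 ± 69.2 in KO, a log2 difference of -0.26 (SE 0.10) without overlap, or 83.6% of control. Scaling to spike-in probes moved it to -0.17. RefSeq lists a readthrough name, Eef1akmt4-Ece2, for this gene, so signal from a joint transcript may be included; Eef1akmt4 itself had a difference of -0.12 (SE 0.17).

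Over the 8 member probes kept, 6 were lower and 2 higher in KO, with a median log2 difference of -0.15; over all kept probes the median was -0.03. One of the 8, Galr1 A_52_P217150, was kept through the KO arrays alone. KO and control did not overlap on 6 of the 8, against 49.3% of all probes. At least a 2-fold difference without overlap was found on 2 member probes that were higher, both of Galr1, and 2 that were lower, of Trhr and Mme; among all probes the shares were 0.608% and 0.568%. Since these genes were picked on this contrast, nothing is read from those counts. The split of all such probes was 228 higher and 213 lower (51.7% higher). It was 317 and 168 (65.4% higher) after spike-in scaling, 228 and 132 (63.3%) without spots on raised background, 29 and 55 (34.5%) with normexp, and 89 and 144 (38.2%) among probes well above background on all 4 arrays. With limma and Benjamini-Hochberg adjustment over all probes, 0 of 37516 (0%) passed an adjusted p of 0.05; 5265 had an unadjusted p under 0.05.

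**Figure D3:**
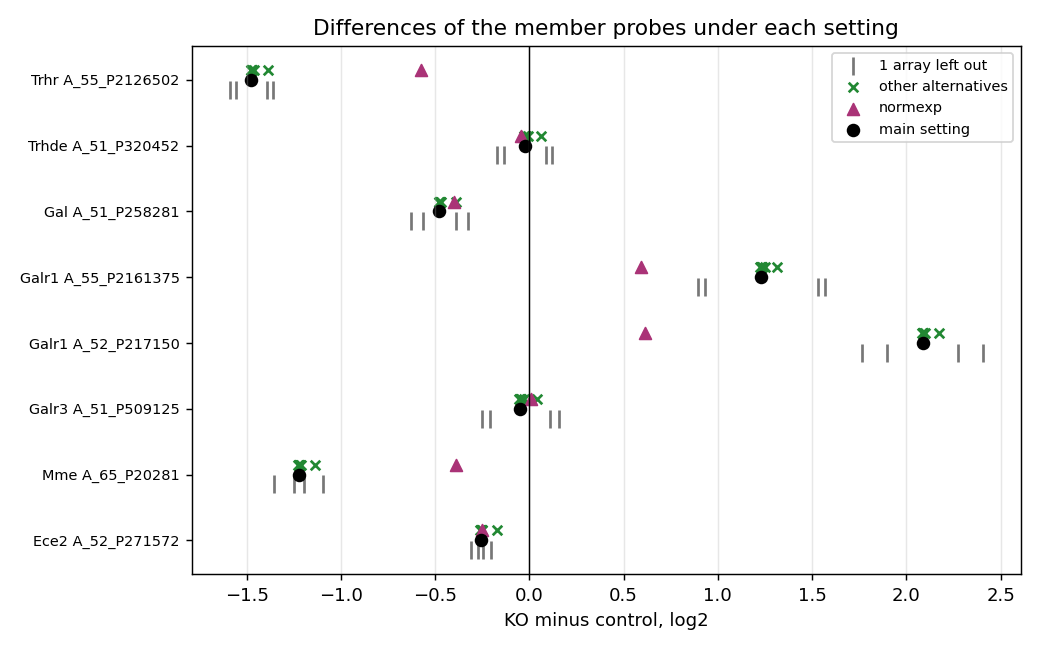
KO minus control difference on the log2 scale (x axis) of the 8 kept member probes (y axis): black circles are the main setting, green crosses other alternatives, purple triangles normexp, and grey ticks the values with 1 array left out. Trhr, Mme and Galr1 A_55_P2161375 keep their sign throughout but move toward 0 under normexp, from -1.47 to -0.57 for Trhr. The points of Galr1 A_52_P217150 are measured signals whose control spots are not well above background, while Trhde and Galr3 straddle 0.

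The genes whose profile over the 4 arrays was nearest were found by Euclidean distance between centred log2 signals, over 16523 other genes at their brightest probe. Nearest to Trhr were Derl2 itself (distance 0.19), Mme (0.26) and Nkx2-9 (0.27), a homeobox gene whose log2 signal was -2.82 and -3.31 in control and -4.41 and -4.49 in KO. Nearest to Mme were Pappa (0.10), Krt6a (0.22) and Derl2 (0.23). Pappa encodes a metalloproteinase that cleaves binding proteins of insulin-like growth factor; its log2 signal was 0.25 and 0.27 in control and -0.74 and -1.05 in KO. Krt6a was dim in KO, at -5.46 and -5.75. Nearest to the brighter Galr1 probe were Klra2 (0.25), Cxcl1 (0.28) and Tbx6 (0.33). Klra2 was at -6.64 and -7.15 in control, below the lowest signal well above background on those arrays, -5.69 and -6.10. It was thus kept through the KO arrays alone. The distance over 4 arrays is a description and mostly reflects the size of the KO minus control difference. Trhr and Mme were chosen because both were lower in KO, and Derl2 is the deleted gene. Their closeness to each other was therefore largely fixed in advance.

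Genes beside the members in RefSeq order, outside the rule for named genes, were read at their brightest probe. Only genes with a kept probe were counted, so genes without one may lie between. Those flanking Trhr, Tmem74 and Nudcd1, differed by 0.16 (SE 0.11) and 0.06 (SE 0.10). Those flanking Mme, Gpr149 and Plch1, differed by -0.26 (SE 0.20) and -0.25 (SE 0.12). Beside Galr1, Sall3 differed by 0.25 (SE 0.23) and Mbp, a myelin gene, by -0.10 (SE 0.23), both with overlapping groups. One gene further out lay Zfp236, at -1.20 and -1.36 in control and -2.87 and -1.74 in KO, and Atp9b, higher by 0.30 (SE 0.11).

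Other genes of peptide signalling were taken from 6 lists, of which 91 genes had a kept probe. Of these, 0 passed the adjusted threshold, and the smallest adjusted p by limma was 0.273. The unadjusted p was under 0.05 for 12 genes, or 13.2%, against 8.81% of all 16524 genes; 11 of the 12 were lower in KO, as were 64.1% of all genes under that p. A 2-fold difference without overlap was found for 2 genes (2.20%), against 1.08% of all genes, and both were lower. Of all genes, 63.9% were lower in KO and 45.9% did not overlap, the shares against which the counts of each list are read. The first depends on the scaling: after spike-in scaling 44.9% of all genes were lower, and their median was 0.02. The 64.1% depends on it too: after spike-in scaling, 35.1% of the genes with an unadjusted limma p under 0.05 were lower.

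The enzymes that cut and finish peptide precursors were lower in KO for all 11 genes measured, with 9 not overlapping. Their median log2 difference was -0.25, against -0.06 over all genes, and 0 reached 2-fold. After spike-in scaling the median was -0.16 and 10 of 11 were lower. Without KO replicate 2 it was -0.14 and without KO replicate 1 it was -0.36, with 10 of 11 lower in each case. Pcsk1, a convertase that cuts precursors such as pro-TRH, had the largest difference. Its log2 signal was -1.53 and -1.65 in control and -2.15 and -2.40 in KO, a difference of -0.69 (SE 0.13; limma adjusted p 0.273).

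Among the other neuropeptides 10 of 16 measured genes were lower, near the share of all genes, with a median of -0.25. It was -0.17 after spike-in scaling and -0.16 without control replicate 1. Tac1, the precursor of substance P, a substrate of neprilysin, was at -1.04 and -2.33 in control and -3.20 and -3.20 in KO. Its difference was -1.52 (SE 0.45; limma adjusted p 0.307), and the controls were far apart. Without control replicate 1 it was -0.87, and without control replicate 2 it was -2.16 with a limma adjusted p of 0.0497, where the lone control is assumed to vary like the other group. The cerebellar nuclei markers were also highest on control replicate 1, at the sums given above, and their part in the result was not tested. Nmb had the largest positive value, 0.15 (SE 0.10; limma adjusted p 0.534).

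Cck, the cholecystokinin precursor, was singled out after its values were seen. Its log2 signal was 4.57 and 4.65 in control and 3.88 and 3.86 in KO, a difference of -0.75 (SE 0.10; limma adjusted p 0.273). Among the 15 alternatives the difference ran from -0.79 to -0.66 and the limma adjusted p from 0.0808 to 0.554. Normexp left it at -0.74.

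Of the other peptide receptors, 16 of 20 measured genes were lower in KO, with a median of -0.21. After spike-in scaling 14 were lower and the median was -0.13; it was -0.11 without control replicate 1 and -0.12 without KO replicate 2. Crhr2, a receptor of corticotropin-releasing hormone and urocortins, passed the 2-fold rule through a single array. Its log2 signal was -1.41 on control replicate 2 but -4.86 on control replicate 1 and -5.29 and -5.32 in KO, and without control replicate 2 the difference of -2.17 became -0.45. That array is the one with high choroid plexus markers, whose part in the result was not tested. Npy1r had the largest positive value, 0.33 (SE 0.27; limma adjusted p 0.602), with overlapping groups, and ran from 0.04 without KO replicate 2 to 0.62 without KO replicate 1.

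Other peptidases gave 16 lower genes of 20 measured and a median of -0.17, which was -0.08 with 14 lower after spike-in scaling and -0.11 without control replicate 2. Enpep, the aminopeptidase that acts on angiotensin, was at -3.98 and -3.81 in control and -4.80 and -4.33 in KO, a difference of -0.67 (SE 0.19; limma adjusted p 0.307). Under normexp this was -0.30, and without KO replicate 1 it was -0.43. Mural markers, among which Enpep is not listed, were lower in KO at the sums given above, and their part in the result was not tested. Rnpep had the largest positive value, 0.03 (SE 0.10), which turned to -0.01 under normexp.

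The G protein pathway below these receptors was close to the background, with 11 of 17 genes lower and a median of -0.07 that became 0.01 after spike-in scaling and -0.01 without KO replicate 2. Kcnj6, an inwardly rectifying potassium channel opened by inhibitory G proteins, was higher by 0.45 (SE 0.14; limma adjusted p 0.328). Its log2 signal was -2.64 and -2.40 in control and -2.18 and -1.97 in KO, without overlap. Rgs4, which shortens such signals, differed by -0.41 (SE 0.20; limma adjusted p 0.433), and by -0.16 without control replicate 1 and -0.66 without control replicate 2.

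The thyroid hormone axis, which TRH serves through the pituitary, had a median of -0.05 over 7 measured genes, 4 of them lower; the median was 0.04 after spike-in scaling and 0.07 without control replicate 1. Thra, a thyroid hormone receptor gene, differed by 0.17 (SE 0.11; limma adjusted p 0.514), and by 0.10 without control replicate 1.

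**Figure D4:**
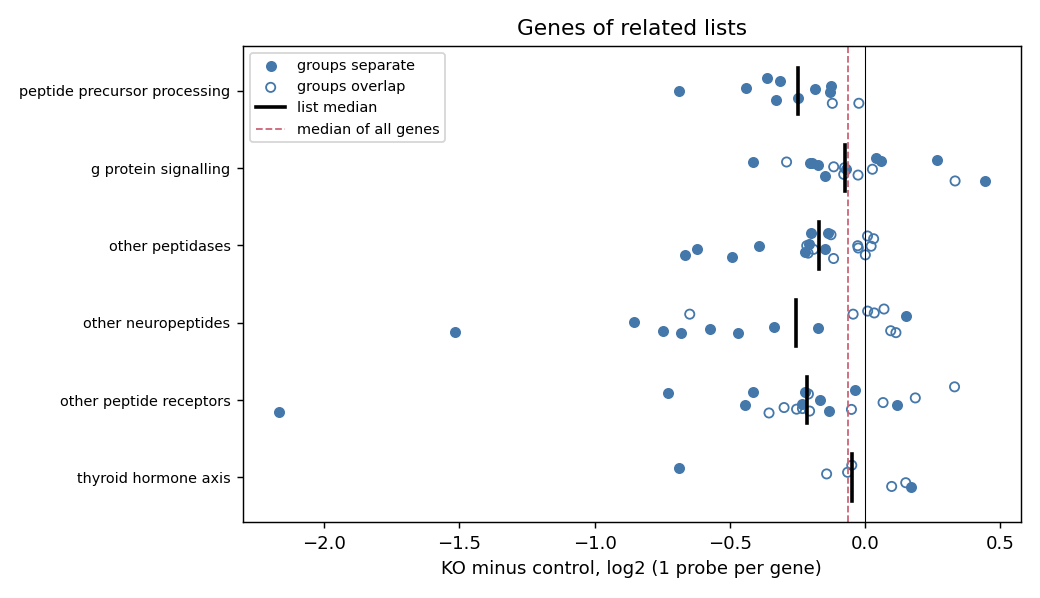
KO minus control difference on the log2 scale (x axis) of each measured gene in the 6 related lists (y axis), 1 probe per gene; filled points have no overlap between groups, black bars are list medians and the dashed line is the median of all genes. The median of the precursor-processing list lies at -0.25 and that of all genes at -0.06; the points farthest left are Crhr2 at -2.17 and Tac1 at -1.52.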

How the data were processed

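Cerebellar RNA from 2 control and 2 KO samples (150 ng each, labelled with Cy3) was put on Agilent arrays, 1 sample to an array, per the labels' protocols. Per the file headers, Feature Extraction 12.1.1.1 gave the deposited scanner intensity; the submitters' processing notes name version 10.7.1.1. Its processed signal is background subtracted and detrended within an array. The authors' series table holds log2 values, centred per probe on a value not stated. Their differences between arrays equalled those of the scaled log2 signal defined above. Apart from a median shift of at most 0.0051, they were within 0.01 for 100% of 35661 probes. The authors' values thus carry the same scaling as the main setting and are no separate check of it. The column medians of the authors' table ran from -0.22 to 0.01.

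Here log2 processed signal was averaged over a probe's spots, without outlier flags, then shifted so that the 75th percentile of every array was 0. KO minus control was fitted over 37516 probes with limma 3.58.1 in R 4.3.3 (lmFit, eBayes, 4.35 degrees of freedom) and checked on simulated data. RefSeq (GRCm38.p6) named 32994 of 35886 probes with an accession. The number of arrays limits the precision.

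Members and gene lists were chosen with earlier results of these data known. Named were all members, in each list the genes with the largest positive and negative difference and any past the 2-fold rule, and the 3 nearest profiles to Trhr, Mme and Galr1. One gene that this rule names is not reported here. Alternatives were quantile, median and spike-in scaling (7 probes), normexp on median intensity, the authors' values, flagged or patch spots, other filters, a variance trend, a block and arrays left out.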

Additional observations from a re-analysis of the deposited data

How the results depend on the processing

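The sign of the differences of Trhr, Mme, Gal, Ece2 and Galr1 A_55_P2161375 held under all 12 alternatives run for each. Most of these could hardly turn it. The groups of these probes did not overlap, so leaving out 1 array cannot turn the sign. The block leaves the difference as it is, and the authors' values, flagged spots and patch spots hardly move it. Trhde and Galr3, near 0, changed sign under 3 and 4 of 12. Normexp, whose offset raises dim signals, moved Trhr from -1.47 to -0.57, Mme from -1.22 to -0.39 and Galr1 A_55_P2161375 from 1.23 to 0.59. For Galr1 A_52_P217150, whose control spots are not well above background, the measured signals differed by 0.61 under normexp, which is no estimate of size. With 1 array left out, Trhr ran from -1.59 to -1.36, Mme from -1.35 to -1.10, and Galr1 A_55_P2161375 from 0.89 to 1.57. The signal over background limits every value of these dim probes.

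Over all probes, the count past the adjusted threshold, 0, was 1 each with spike-in scaling, quantile scaling, median scaling and patch spots left out, 2 with normexp, 4 with an intensity trend and robust variances, and 0 to 98 with 1 array left out, the largest without control replicate 2. The 441 probes past the 2-fold rule became 84 with normexp, 1239 with no filter on dim probes, 233 when well above background on all 4 arrays, 2190 at a 1.5-fold limit, and 565 to 890 with 1 array left out, where separation is easier to meet. The 2 related genes past that rule became 3 to 4 with 1 array left out; the cause was not tested. With the replicate block, 0 probes passed the adjusted threshold and the differences were the same; the labels do not say that equal numbers mark a pair, and the deviations of same-numbered arrays had a correlation of 0.12 across probes.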
